A study of Mus musculus with 8 samples.

Results

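The AP-1 subunits of the JUN, FOS and BATF families were followed in sorted spleen cells of lupus-prone mice with and without Eaf2. The members were the rows of the deposited gene table carrying the symbols Jun, Junb, Jund, Fos, Fosb, Fosl1, Fosl2, Batf, Batf3 and Atf3, and all 10 were found among 17384 genes. One group, titled EAF2Faslpr and written Eaf2-/-Faslpr in the study design, comprised 4 libraries, and the other, titled Faslpr, also comprised 4. All 8 came from spleen cells sorted as B220+CD3+, and both groups carry Faslpr, the lpr mutation of the death receptor gene Fas, so neither is a wild type. The labels give no age, sex, strain, treatment or deleted part of Eaf2, and do not say whether libraries came from separate or pooled animals. P-values therefore reflect the spread among these libraries alone, and that spread may be technical.

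AP-1 is a family of dimeric transcription factors whose subunits pair through a leucine zipper and bind short palindromic DNA elements. JUN proteins pair with one another and with FOS proteins, FOS proteins need a JUN partner, and BATF proteins and ATF3 bind DNA mostly as partners of JUN proteins. In T cells the FOS and JUN genes are immediate early genes, transcribed within minutes of antigen receptor or stress signals through MAP kinases, and AP-1 then acts with NFAT or IRF factors on cytokine genes. EAF2, the product of the gene deleted in Eaf2-/-Faslpr mice, is an associated factor of the ELL transcription elongation proteins.

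Library totals lay between 15.6 and 18.6 megareads. Levels are given as counts per megaread (CPM) after TMM scaling, on which 3 reads, the limit that a count of 0 allows, stood for 0.161 to 0.193 CPM (counting error only). Eaf2, checked first, was at 4.43, 4.20, 4.02 and 6.29 CPM in Eaf2-/-Faslpr cells, against 25.7, 24.2, 20.7 and 31.5 CPM in Faslpr cells, and fell by 2.43 on the log2 scale (edgeR adjusted p = 2.90e-05). Fas, mutated in both groups, was at 64.2 ± 6.87 CPM in Eaf2-/-Faslpr and 54.3 ± 9.82 CPM in Faslpr cells (edgeR adjusted p = 0.276). Of 12340 genes tested with edgeR's quasi-likelihood test, 12.1% passed at a Benjamini-Hochberg adjusted p under 0.05, 7.14% higher and 4.96% lower in Eaf2-/-Faslpr cells. The 9 T cell markers in the table, led by the kinase gene Lck, summed to between 4024 and 4257 CPM in Eaf2-/-Faslpr and between 3774 and 4598 CPM in Faslpr libraries. B cell markers, which a CD3 gate should leave out, were present in both groups, at 421, 441, 784 and 430 CPM in Eaf2-/-Faslpr and 116, 159, 187 and 149 CPM in Faslpr libraries. Eaf2-/-Faslpr replicate 3 stood apart, with the highest B cell sum and 119.56 CPM of neutrophil markers, against at most 20.3 CPM in each of the other 7 libraries.

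Of the 10 subunits, 7 had enough reads to be tested, and 6 of these rose in Eaf2-/-Faslpr cells, namely Jun, Junb, Jund, Fos, Fosb and Fosl2. By comparison, 7.14% of all tested genes were called higher. Batf did not pass, and Fosl1, Batf3 and Atf3 fell under the filter on low counts. None of the 7 was lower, and in edgeR 0 were lower at an unadjusted p under 0.05, with 0 lower calls by DESeq2 or limma-voom. In these bulk libraries, a change in the RNA of each cell and a change in the mix of cells cannot be told apart, nor can fewer cells of a type and less RNA per cell. Jun, Junb, Fos and Fosb passed in each of 15 fits, which were the fit reported and the 14 alternative settings. They were the 4 members called in the fits without Eaf2-/-Faslpr replicate 3 and without Faslpr replicates 1, 2 or 3, where the count of calls was 4 in place of 6. For all 7 tested members every Eaf2-/-Faslpr library lay above every Faslpr library, as for 9.71% of all tested genes. The median log2 fold change was 1.89 over the 7 members and −0.01 over all genes tested. Fosl2 reached the filter's CPM minimum in 3 of 4 Faslpr libraries and so passed it through the Eaf2-/-Faslpr libraries, and counts over the tested members are descriptions for that reason.

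**Figure D1:**
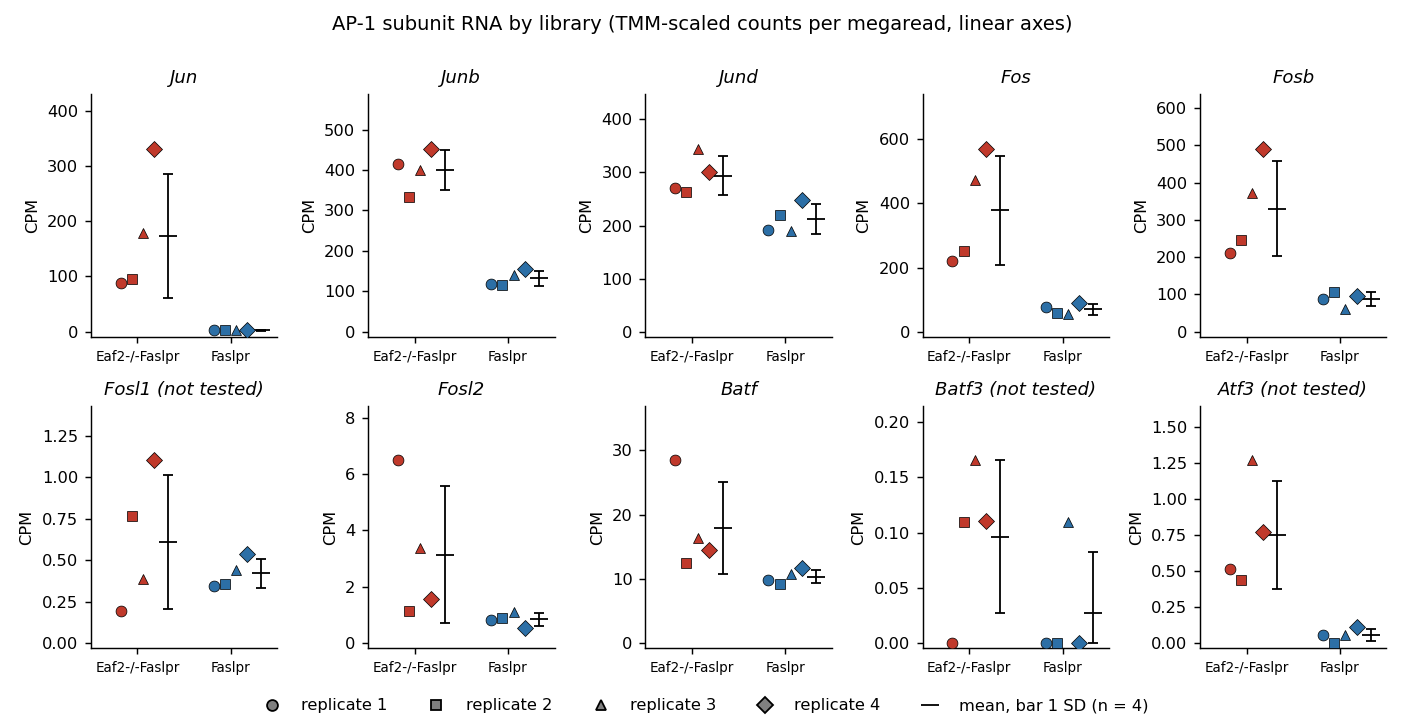
Each panel shows 1 AP-1 subunit, with TMM-scaled CPM on a linear axis, Eaf2-/-Faslpr libraries in red at the left and Faslpr libraries in blue at the right, marked by replicate. Bars give the mean and 1 SD (n = 4 per group, cut off at 0). Jun spans 87.9 to 331 CPM in Eaf2-/-Faslpr and 2.204 to 3.36 CPM in Faslpr libraries, while the Fosl1 and Batf3 groups overlap.

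The DNA upstream of the 4 genes that passed in every fit is shown because these genes rose together and because AP-1 and CREB/ATF factors are known to act on AP-1 gene promoters. Each line gives the 250 bases before the RefSeq start on GRCm38.p6, which is not the build of the read values (GRCm39), 5′ to 3′ on the gene's own strand. Capitals mark TGACATCA in Jun and the core TGACG in the others. TGACATCA is a variant of the AP-1 element known from the human JUN promoter. The windows are chr4:95052223-95052472, minus strand, for Jun, chr8:84978749-84978998, minus strand, for Junb, chr12:85473640-85473889, plus strand, for Fos, and chr7:19310046-19310295, minus strand, for Fosb.
Jun: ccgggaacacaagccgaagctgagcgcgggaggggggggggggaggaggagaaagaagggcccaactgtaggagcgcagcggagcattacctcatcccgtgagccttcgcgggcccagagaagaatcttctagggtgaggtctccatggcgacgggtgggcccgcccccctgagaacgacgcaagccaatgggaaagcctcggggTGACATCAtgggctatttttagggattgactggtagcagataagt
Junb: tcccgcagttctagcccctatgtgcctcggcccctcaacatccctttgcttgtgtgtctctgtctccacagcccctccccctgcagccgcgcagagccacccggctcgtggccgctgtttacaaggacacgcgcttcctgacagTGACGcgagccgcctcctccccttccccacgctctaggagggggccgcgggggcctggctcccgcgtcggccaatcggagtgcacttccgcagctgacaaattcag
Fos: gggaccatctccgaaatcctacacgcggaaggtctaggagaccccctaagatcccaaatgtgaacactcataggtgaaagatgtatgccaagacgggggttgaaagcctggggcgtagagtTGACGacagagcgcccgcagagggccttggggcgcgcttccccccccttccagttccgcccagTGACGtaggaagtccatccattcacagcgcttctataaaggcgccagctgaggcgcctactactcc
Fosb: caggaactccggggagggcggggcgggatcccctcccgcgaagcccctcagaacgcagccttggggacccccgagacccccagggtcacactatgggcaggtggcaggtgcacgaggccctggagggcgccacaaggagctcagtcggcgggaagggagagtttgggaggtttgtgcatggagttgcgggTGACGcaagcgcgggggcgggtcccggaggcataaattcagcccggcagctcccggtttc

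RefSeq promoter windows, from 250 bases before to 50 bases after the start, were found for 9 of the 10 members and searched on both strands for 4 sets of letters. TGACATCA was found in the Jun window, starting 45 bases before the start, and in no other member's, against 3.62% of all 32851 windows. The core TGACG, which is also part of TGACGTCA, was found in 5 members, against 20.8% of all windows. It began 129 and 66 bases before the Fos start, 60 before that of Fosb, 106 before that of Junb, and 98 before that of Batf, and the Atf3 window held it on the other strand. TGAGTCA, the consensus AP-1 element, and TGACGTCA, the consensus CRE, were in 0 of the 9 windows, against 5.2% and 1.79% of all windows. The part of these letters in the RNA changes was not tested. A match of letters is a description and not a bound site. In GENCODE M21, Jun, Junb and Jund are annotated with 1 exon each, Fos with 4, and Fosb with 3 to 5 over 6 coding transcripts.

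Jun, which encodes c-JUN, a JUN protein with which FOS proteins can bind DNA, was the member that differed most. It was measured at 87.9, 95.3, 178 and 331 CPM in Eaf2-/-Faslpr replicates 1 to 4, against 2.23, 2.204, 3.36 and 3.17 CPM in Faslpr replicates 1 to 4. In reads this was 1368 to 5990 per Eaf2-/-Faslpr library and 37 to 61 per Faslpr library. The groups were far apart, the lowest Eaf2-/-Faslpr library being 26.2-fold above the highest Faslpr library. The log2 fold change was 5.97 (SE 0.49), or 62.7-fold, with an adjusted p of 5.65e-05 by edgeR's quasi-likelihood test. Only 6 of the 12340 tested genes had a larger log2 fold change. Within the Eaf2-/-Faslpr group Jun varied 3.76-fold from the lowest to the highest library, a coefficient of variation of 65.2%, against 22.2% within Faslpr. Over the fits that left out a library the log2 fold change ranged from 5.45 to 6.19.

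Junb, a JUN protein that is a weaker activator than c-JUN and acts in effector T cells, rose with little spread between libraries. It reached 414, 333, 401 and 452 CPM in Eaf2-/-Faslpr cells, against 119, 116, 140 and 156 CPM in Faslpr cells. The 4 libraries of each group lay close together, with a coefficient of variation of 12.4% in Eaf2-/-Faslpr and 14.1% in Faslpr cells, and the groups did not overlap. The log2 fold change was 1.59 (SE 0.12), or 3.02-fold, with an adjusted p of 3.23e-05 by edgeR. Jund, the JUN gene that is expressed broadly in resting cells, was measured at 270, 263, 344 and 300 CPM in Eaf2-/-Faslpr cells, against 192, 220, 189 and 248 CPM in Faslpr cells. Its groups stood side by side without overlap, and the lowest Eaf2-/-Faslpr library was 1.06-fold above the highest Faslpr library. Jund rose 1.38-fold (log2 0.47, SE 0.11, adjusted p = 0.0216 by edgeR). That call was lost in 5 of 8 leave-one-out fits, without Eaf2-/-Faslpr replicates 3 or 4 and without Faslpr replicates 1, 2 or 3 (edgeR adjusted p up to 0.0626).

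Fos, the founding FOS subunit and a standard marker of recent stimulation, was at 222, 251, 472 and 569 CPM in Eaf2-/-Faslpr cells, against 78.0, 56.8, 55.1 and 89.5 CPM in Faslpr cells. Fosb, the related gene that also gives a shorter protein by alternative splicing, was at 212, 245, 371 and 490 CPM in Eaf2-/-Faslpr cells, against 86.8, 106, 61.6 and 96.8 CPM in Faslpr cells. Both genes were highest in Eaf2-/-Faslpr replicate 4 and lowest in replicate 1, as Jun was, and neither overlapped with Faslpr. Fos rose 5.42-fold (log2 2.44, SE 0.31, adjusted p = 0.000818 by edgeR). Fosb rose 3.75-fold (log2 1.91, SE 0.26, adjusted p = 0.00133 by edgeR). The table holds gene totals, so the long and short forms of Fosb were not separated.

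**Figure D2:**
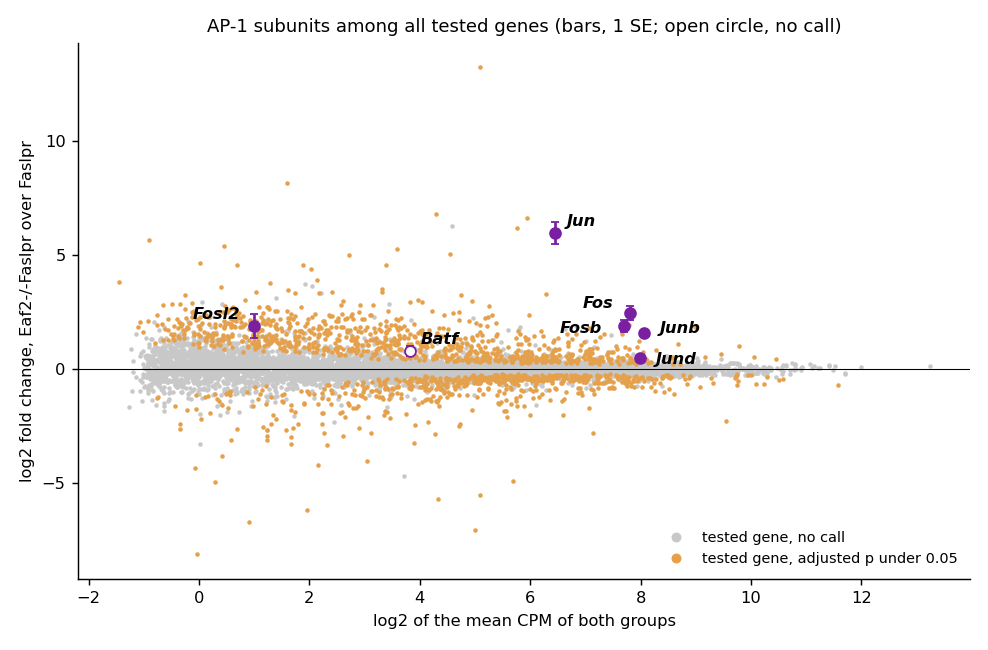
Every tested gene is a point, with the log2 of the mean CPM of both groups on the x axis and the log2 fold change of Eaf2-/-Faslpr over Faslpr on the y axis. AP-1 subunits are in purple with 1 SE, filled where the gene passed. Jun stands near the top at 5.97, Fos, Fosb, Junb and Jund lie among abundant genes, and Batf is the open circle.

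The remaining FOS members were scarce. Fosl2, which encodes FRA-2, was at 6.49, 1.15, 3.36 and 1.55 CPM in Eaf2-/-Faslpr cells, against 0.802, 0.894, 1.10 and 0.538 CPM in Faslpr cells. Replicates 1 and 3 held most of the Eaf2-/-Faslpr reads, and replicate 2 lay just above the highest Faslpr library. Fosl2 rose 3.72-fold (log2 1.89, SE 0.53, adjusted p = 0.0419 by edgeR). The call was lost in 6 of 8 leave-one-out fits, without Eaf2-/-Faslpr replicates 1 or 3 or any of the 4 Faslpr libraries (edgeR adjusted p up to 0.0992), and the log2 fold change was 1.27 without Eaf2-/-Faslpr replicate 1. Fosl1, which encodes FRA-1, had 3, 14, 7 and 20 reads in Eaf2-/-Faslpr libraries and 6, 6, 8 and 10 reads in Faslpr libraries. The groups overlapped and the ratio of summed reads, scaled to library size, was 1.48 (exact 95% counting interval 0.913 to 2.45). Fosl1 overlaps Ccdc85b in the annotation and the sources used here give no strand setting, so its reads are uncertain.

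Batf, a partner of JUN proteins and IRF4 in activated lymphocytes, was measured at 28.5, 12.5, 16.4 and 14.5 CPM in Eaf2-/-Faslpr cells, against 9.86, 9.18, 10.7 and 11.6 CPM in Faslpr cells. The groups did not overlap, and replicate 1 was far above the other Eaf2-/-Faslpr libraries. The log2 fold change of 0.79 (SE 0.23) did not pass (edgeR adjusted p = 0.0532). It passed by DESeq2 (adjusted p = 0.0108) and in edgeR without Eaf2-/-Faslpr replicate 2 (adjusted p = 0.0303), and adjusted p reached 0.140 in the other settings. Atf3, a stress-induced bZIP factor, had 8, 8, 23 and 14 reads in Eaf2-/-Faslpr libraries and 1, 0, 1 and 2 reads in Faslpr libraries. No Faslpr library reached the lowest Eaf2-/-Faslpr library, and the ratio of summed reads was 13.4 (exact 95% counting interval 4.94 to 51.0). When no filter on low counts was applied, Atf3 passed in edgeR (log2 fold change 3.57, SE 0.65, adjusted p = 0.00448 over 17337 genes) and also by DESeq2 (adjusted p = 0.00134). Batf3, a factor of dendritic cells and memory T cells, had 7 reads over the Eaf2-/-Faslpr libraries and 2 over the Faslpr libraries (ratio 3.54, interval 0.675 to 35.0), a difference that was not detectable at this depth.

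Levels of different genes were compared on the authors' FPKM values, which are scaled to length. Within the JUN family, Junb and Jund were at near-equal levels in Faslpr cells, and Junb was the larger in each Eaf2-/-Faslpr library. The summed JUN level averaged 384 ± 66.2 FPKM in Eaf2-/-Faslpr and 149 ± 18.1 FPKM in Faslpr cells (SD, n = 4 each). Jun made up 7.90%, 9.82%, 14.1% and 22.7% of that sum in Eaf2-/-Faslpr replicates 1 to 4, against 0.527%, 0.489%, 0.733% and 0.576% in Faslpr replicates 1 to 4. In every library Jun remained the least abundant JUN subunit by FPKM, although in Eaf2-/-Faslpr replicate 4 it stood at 105.07 FPKM, beside Jund at 105.75 FPKM. Junb held 58.9 ± 4.90% in Eaf2-/-Faslpr and 49.3 ± 3.37% in Faslpr cells, and Jund held 27.5 ± 3.45% in Eaf2-/-Faslpr and 50.1 ± 3.47% in Faslpr cells. The shares of Junb and Jund did not overlap between groups.

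The FOS family was made up almost wholly of Fos and Fosb in both groups. Their family sum averaged 274 ± 116 FPKM in Eaf2-/-Faslpr and 57.8 ± 10.7 FPKM in Faslpr cells (SD, n = 4 each), 4.75-fold higher, where the JUN sum was 2.57-fold higher. Fos held 66.7 ± 2.32% of the sum in Eaf2-/-Faslpr and 58.3 ± 6.40% in Faslpr cells, and Fosb held 32.9 ± 2.17% in Eaf2-/-Faslpr and 41.0 ± 6.44% in Faslpr cells. Faslpr replicate 2 had the lowest Fos share, 48.7%, and was the library in which Fosb exceeded Fos by FPKM. Fosl1 and Fosl2 each held under 1% in all 8 libraries. Jun stood at 0.121, 0.163, 0.253 and 0.418 of the Junb FPKM in Eaf2-/-Faslpr replicates 1 to 4 and at 0.0107, 0.0108, 0.0137 and 0.0116 in Faslpr replicates 1 to 4.

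**Figure D3:**
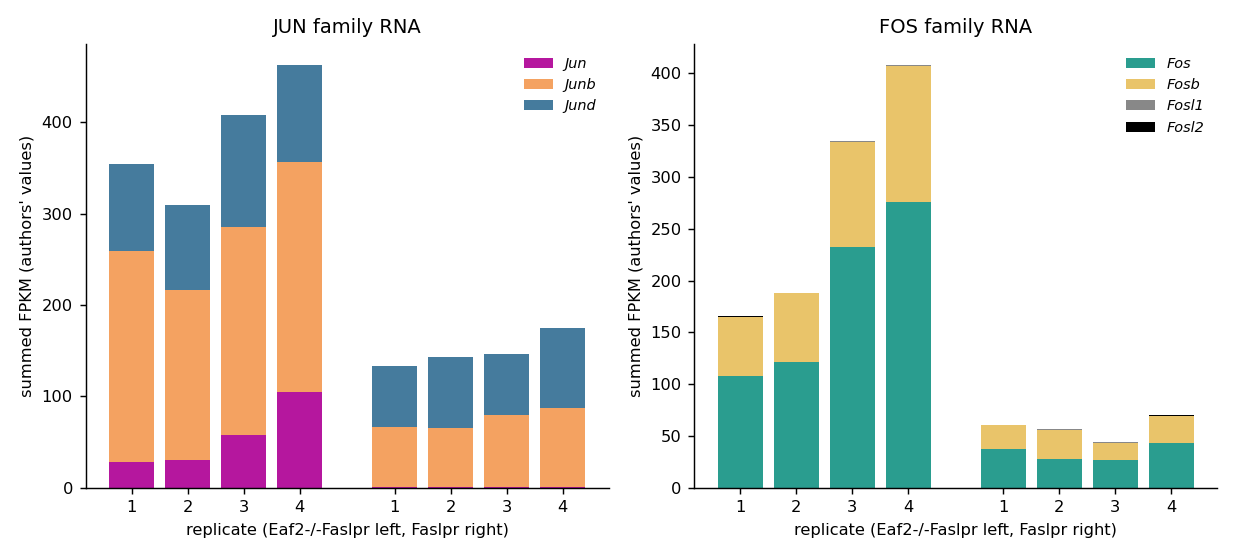
Stacked bars give the authors' FPKM of each JUN family (left) and FOS family (right) subunit in every library, Eaf2-/-Faslpr replicates left of Faslpr replicates. The Jun segment is visible in the 4 Eaf2-/-Faslpr bars and nearly absent in the Faslpr bars. Fosl1 and Fosl2 are too small to see in most bars.

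The members did not share a single order over the Eaf2-/-Faslpr libraries. Jun, Junb, Fos and Fosb were highest in replicate 4, Jund, Atf3 and Batf3 in replicate 3, and Fosl2 and Batf in replicate 1. Likeness was measured as the root mean square (RMS) difference of log2 CPM over the 8 libraries, each gene taken relative to its Faslpr mean. This distance grows with a difference in fold change between genes, so a close pair need not share an order over libraries. The nearest genes were picked by this measure alone, among other tested genes, with predicted genes (Gm numbers, Rik names) left out. Among members Jund and Batf were the closest pair at 0.41, followed by Fos and Fosb at 0.43 and Junb and Fosb at 0.44, whereas Jun was at least 2.44 from any other tested member. Among 9684 other genes with at least 5 CPM, those most like Jun were still distant. They were Acsf2, an acyl-CoA synthetase gene (RMS 0.99), the peptide transporter gene Slc15a2 (0.998) and Arhgap31 (1.02), the last pair on chromosome 16, as Eaf2 is. The genes most like Junb were Gem, a small GTPase gene (0.15), the ubiquitin ligase gene Mid1 (0.18) and Nfkbia, which encodes the NF-kB inhibitor IkBα (0.20).

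Fos was most like Klf4, another immediate early factor (RMS 0.25), then Tnf (0.34) and the claudin gene Cldn10 (0.39). Klf4 was at 44.2 ± 18.2 CPM in Eaf2-/-Faslpr and 7.81 ± 1.77 CPM in Faslpr cells. Fosb was most like Tnf, the polo-like kinase gene Plk2 and Cldn10, each at 0.33. Jund was most like Atf4, the bZIP factor of the integrated stress response (0.07), Fth1, which encodes ferritin heavy chain (0.10), and the translation factor gene Eif1 (0.11). Eif1 did not pass (edgeR adjusted p = 0.0579), Atf4 lost its call without Eaf2-/-Faslpr replicates 3 or 4 or Faslpr replicate 1, and Fth1 passed in 2 of 8 leave-one-out fits, those without Eaf2-/-Faslpr replicate 1 or Faslpr replicate 4 (edgeR adjusted p up to 0.0824). Fosl2 was nearest to Mpeg1, a gene of macrophages and other myeloid cells (0.36), Iigp1, an interferon-induced GTPase gene (0.39), and Zfp949 (0.46), of which Iigp1 and Zfp949 did not pass (edgeR adjusted p = 0.0505 and 0.0683) and Mpeg1 was no longer called without Eaf2-/-Faslpr replicates 1 or 3 or Faslpr replicates 1, 2 or 4.

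**Figure D4:**
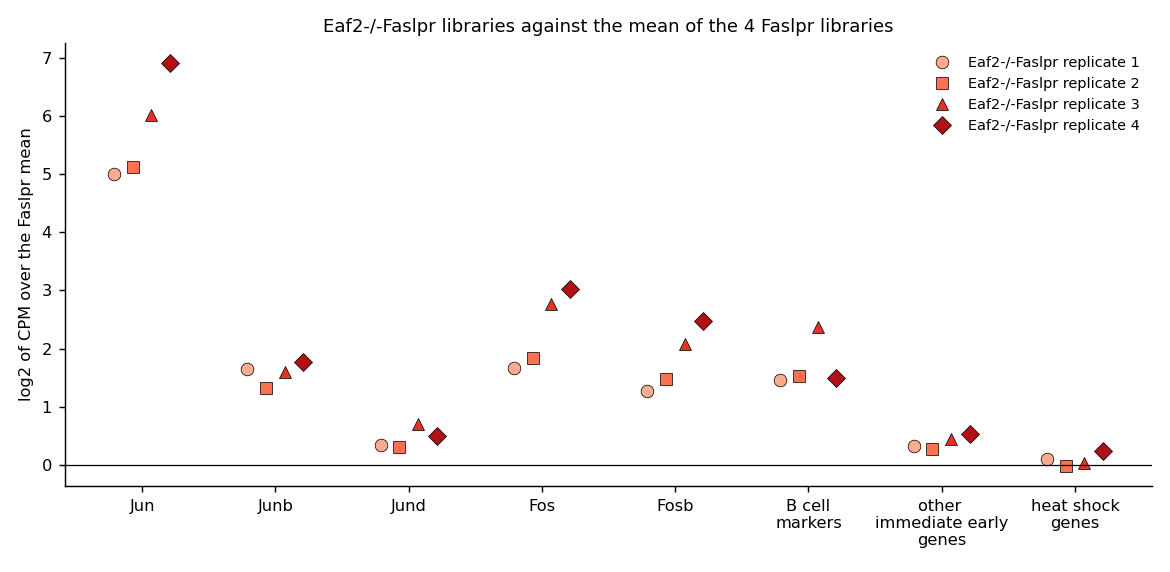
Each point is 1 Eaf2-/-Faslpr library, with the log2 of its CPM over the mean of the 4 Faslpr libraries on the y axis, for 5 members and for 3 summed gene lists. Replicate 4 is highest for Jun, Junb, Fos and Fosb, whereas replicate 3 is highest for Jund and for the B cell markers.

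Among the markers of other cell types, those of B cells were higher as a list. Over all tested genes, 7.14% were called higher and 4.96% lower. Of 16 tested B cell markers 15 rose and 0 fell (0 lower also at an unadjusted edgeR p under 0.05, and 0 lower by DESeq2 or limma-voom), with a median log2 fold change of 1.91. Pax5, the B lineage factor, was at 32.0 ± 10.9 CPM in Eaf2-/-Faslpr and 5.5 ± 2.03 CPM in Faslpr cells, Cd22, which encodes an inhibitory B cell receptor, was at 66.9 ± 15.9 CPM in Eaf2-/-Faslpr and 16.7 ± 5.25 CPM in Faslpr cells, and the kinase gene Blk rose 4.32-fold. Spib, the most abundant of these markers, was at 52.6 ± 14.8 CPM in Eaf2-/-Faslpr and 32.1 ± 5.06 CPM in Faslpr cells and was no longer called without Eaf2-/-Faslpr replicates 2, 3 or 4 or Faslpr replicates 1, 2 or 3 (edgeR adjusted p up to 0.101). The part of B cell RNA in the AP-1 values was not tested. Over the Eaf2-/-Faslpr libraries the B cell sum was highest in replicate 3 and within 421 to 441 CPM in the others. The Faslpr libraries lay between 116 and 187 CPM, so a fit without Eaf2-/-Faslpr replicate 3 keeps a B cell difference between the groups. Without Eaf2-/-Faslpr replicate 3 the log2 fold change was 5.95 for Jun, 1.59 for Junb, 2.31 for Fos and 1.84 for Fosb. Without Eaf2-/-Faslpr replicate 4, in which these genes were highest, it was 5.45 for Jun, 1.53 for Junb, 2.17 for Fos and 1.65 for Fosb, and all 8 of these values passed in edgeR.

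Among the other cell types, 2 of 11 tested macrophage markers rose, Cybb (2.74-fold) and Lyz2 (7.69-fold), beside 7.14% of all tested genes called higher and 4.96% lower. Calls of 1 or 2 genes in these short lists are not read as a change of the list. The macrophage list summed to 83.0 to 188 CPM in Eaf2-/-Faslpr and 71.5 to 93.6 CPM in Faslpr libraries. Lyz2, the lysozyme gene of myeloid cells, lost its call without Faslpr replicates 1, 2 or 4 (edgeR adjusted p up to 0.112). The Lyz2 log2 fold change was 2.94, and 1.37 without Eaf2-/-Faslpr replicate 3. Fcgr1 and Marco were under 1 CPM in all 8 libraries. The most abundant macrophage marker, Cd68, did not pass in any leave-one-out fit. Of 5 tested neutrophil markers 0 passed in edgeR, with 4 higher at an unadjusted p under 0.05, 2 higher by DESeq2 and 0 by limma-voom, and Ly6g and Elane were under 1 CPM in all libraries. Ccr9 rose among 5 dendritic cell markers and lost its call without Eaf2-/-Faslpr replicates 2, 3 or 4 or Faslpr replicates 1 or 2, and the list summed to 65.1 to 78.1 CPM in Eaf2-/-Faslpr and 65.8 to 76.6 CPM in Faslpr libraries. The antibody-secreting cell markers, led by Sdc1, were the list whose sums were lower, at 687 to 846 CPM in Eaf2-/-Faslpr against 857 to 976 CPM in Faslpr libraries, and Xbp1 fell among its 6 tested genes. Sdc1 did not pass (edgeR adjusted p = 0.0912), nor did Jchain, Mzb1, Prdm1 or Irf4, and the groups overlapped for each. By DESeq2, 2 genes of that list were lower. Of 5 tested erythroid and platelet markers Car2 rose (1.90-fold), with a median log2 fold change of −0.18 over the 5. The haemoglobin genes of that list did not pass, with log2 fold changes of −0.37 for Hba-a1, −0.18 for Hbb-bs and −1.09 for Hbb-bt. The list, of which Car2 was the most abundant, had sums of 32.3 to 49.8 CPM in Eaf2-/-Faslpr and 20.6 to 37.2 CPM in Faslpr libraries. Col1a1 (2.31-fold) and Pecam1 (1.82-fold) rose among 4 tested stromal and endothelial markers, whereas the collagen genes Col1a2 (log2 −0.10) and Col3a1 (log2 −0.34) did not pass. That list had sums of 129 to 149 CPM in Eaf2-/-Faslpr and 62.3 to 89.8 CPM in Faslpr libraries. Most of each sum was Pecam1, at 112 ± 5.41 CPM in Eaf2-/-Faslpr and 61.7 ± 12.8 CPM in Faslpr cells. The listed markers Pdgfra, Pdgfrb, Cdh5 and Kdr were under 1 CPM in all 8 libraries. For none of these lists was the part in the AP-1 values tested. Of the 9 T cell markers 0 passed in edgeR, with 2 higher and 1 lower at an unadjusted p under 0.05, 1 higher and 1 lower by DESeq2 and 0 by limma-voom, and 2 passed without Faslpr replicate 3 and without Faslpr replicate 4.

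The genes around AP-1 were taken from lists by role. These lists, like the members and the cell type lists, were chosen with earlier results of these data known. Their counts are set beside the 7.14% of all tested genes called higher and the 4.96% called lower. That comparison is a description and not a test. Among 34 tested immediate early genes other than AP-1 subunits, 19 rose and 1 fell, with a median log2 fold change of 0.63. Dusp1, a phosphatase that inactivates MAP kinases, averaged 141 ± 40.4 CPM over the 4 Eaf2-/-Faslpr libraries and 14.5 ± 1.93 CPM over the 4 Faslpr libraries (SD). Ppp1r15a, a regulator of eIF2α phosphorylation, rose 5.25-fold, and Tnfaip3, which encodes the NF-kB inhibitor A20, rose 2.92-fold. Egr1, an early growth response factor chosen here after its values were seen, stood at 407 ± 50.4 CPM in Eaf2-/-Faslpr and 413 ± 98.1 CPM in Faslpr cells (edgeR adjusted p = 0.951). The orphan receptor gene Nr4a3 fell by 0.55 on the log2 scale, a call lost in 5 of 8 leave-one-out fits, without Eaf2-/-Faslpr replicates 1, 2 or 3 or Faslpr replicates 1 or 4 (edgeR adjusted p up to 0.0765). The summed list reached 7086 to 8439 CPM in Eaf2-/-Faslpr and 5494 to 6098 CPM in Faslpr libraries, highest in Eaf2-/-Faslpr replicate 4. Of 14 tested genes of the heat shock list, 1 rose, the chaperone gene Hspa5 (1.44-fold), and 0 fell (0 lower at an unadjusted p under 0.05 and by DESeq2 or limma-voom). Hspa8, Hsp90aa1, Dnajb1 and Hsph1 were among those that did not pass in edgeR. The count of 1 higher gene is near the 7.14% of all tested genes. At an unadjusted edgeR p under 0.05, 5 heat shock genes were higher, a count without an all-gene share beside it. The count of higher heat shock genes was 3 by DESeq2, and 2 by limma-voom and without Eaf2-/-Faslpr replicates 1 or 2 or Faslpr replicates 3 or 4.

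Other bZIP genes, whose proteins can pair with AP-1 subunits or compete for their sites, were higher for 6 of 26 tested and lower for 2, with a median log2 fold change of 0.11. Over all tested genes 7.14% were higher and 4.96% lower, and the count of lower bZIP genes is close to that share. The small MAF genes Mafk (1.60-fold) and Maff (3.78-fold) were among those that rose, whereas Mafg did not pass (log2 −0.22, edgeR adjusted p = 0.237). Maff was scarce, at 2.21 ± 0.853 CPM in Eaf2-/-Faslpr and 0.576 ± 0.19 CPM in Faslpr cells. Jdp2, which encodes a JUN dimerization protein that represses AP-1 sites, was at 172 ± 18.7 CPM in Eaf2-/-Faslpr and 299 ± 64.2 CPM in Faslpr cells and fell by 0.80 on the log2 scale (SE 0.15, edgeR adjusted p = 0.0061). Xbp1, a factor of the unfolded protein response, fell by 0.48. Without Eaf2-/-Faslpr replicates 3 or 4 the count of changed bZIP genes was 5 in place of 8.

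Of 26 genes of the MAP kinase cascades that signal to AP-1, 2 rose, Map3k14, the NIK kinase of alternative NF-kB signalling (1.36-fold), and Map4k4 (1.26-fold), a share near the 7.14% of all tested genes called higher. None passed as lower in edgeR, with 3 lower at an unadjusted p under 0.05, 2 lower by DESeq2 and 0 by limma-voom. Of 18 factors known to bind AP-1 gene promoters, 1 rose and 2 fell, beside 7.14% of all tested genes called higher and 4.96% lower. Mef2c rose 2.70-fold, and the part of the B cell difference in that value was not tested. Ets2 and Mrtfb fell by 0.37 and 0.33 on the log2 scale. The call of Ets2 was lost without Eaf2-/-Faslpr replicates 1, 3 or 4 or Faslpr replicates 1 or 2, and that of Mrtfb in every leave-one-out fit except that without Faslpr replicate 4 (edgeR adjusted p up to 0.142). Of 16 genes for turnover and corepression of JUN and FOS proteins, 0 passed in edgeR, with 1 higher at an unadjusted p under 0.05, 1 by DESeq2 and 0 by limma-voom, and 1 passed without Faslpr replicate 3. Irf8 rose 1.40-fold among 8 NFAT and IRF partners, and without Faslpr replicate 4 the count was 2.

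Among 18 genes of the table known as AP-1 targets in T cells, 12 were tested, 5 rose and 1 fell. Over all tested genes the edgeR shares were 7.14% higher and 4.96% lower. Tnf, the inflammatory cytokine gene, was at 7.13, 10.54, 12.1 and 15.6 CPM in Eaf2-/-Faslpr cells, against 1.89, 2.56, 2.26 and 3.23 CPM in Faslpr cells, and was highest in replicate 4 of both groups. Plaur, the urokinase receptor gene, was at 2.38, 1.86, 3.31 and 1.66 CPM in Eaf2-/-Faslpr cells, against 0.229, 0.477, 0.550 and 0.323 CPM in Faslpr cells. Il2ra, which encodes the CD25 chain of the interleukin receptor, rose 1.51-fold. Fasl, the ligand gene of the receptor mutated in both groups, fell to 191 ± 13.5 CPM in Eaf2-/-Faslpr cells, against 332 ± 24.1 CPM in Faslpr cells (log2 −0.80, SE 0.08, edgeR adjusted p = 0.000198). These 4 calls held in all 8 leave-one-out fits, whereas the list's count of changed genes, 6, fell to as few as 4. The remaining genes that rose, Ctla4 and Il21, are named to complete the list, and their groups overlapped. Il21 was at 8.23 ± 10.9 CPM in Eaf2-/-Faslpr and 0.787 ± 0.585 CPM in Faslpr cells. Il2, Il4, Il5, Csf2 and Timp1 were under 1 CPM in all 8 libraries.

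**Figure D5:**
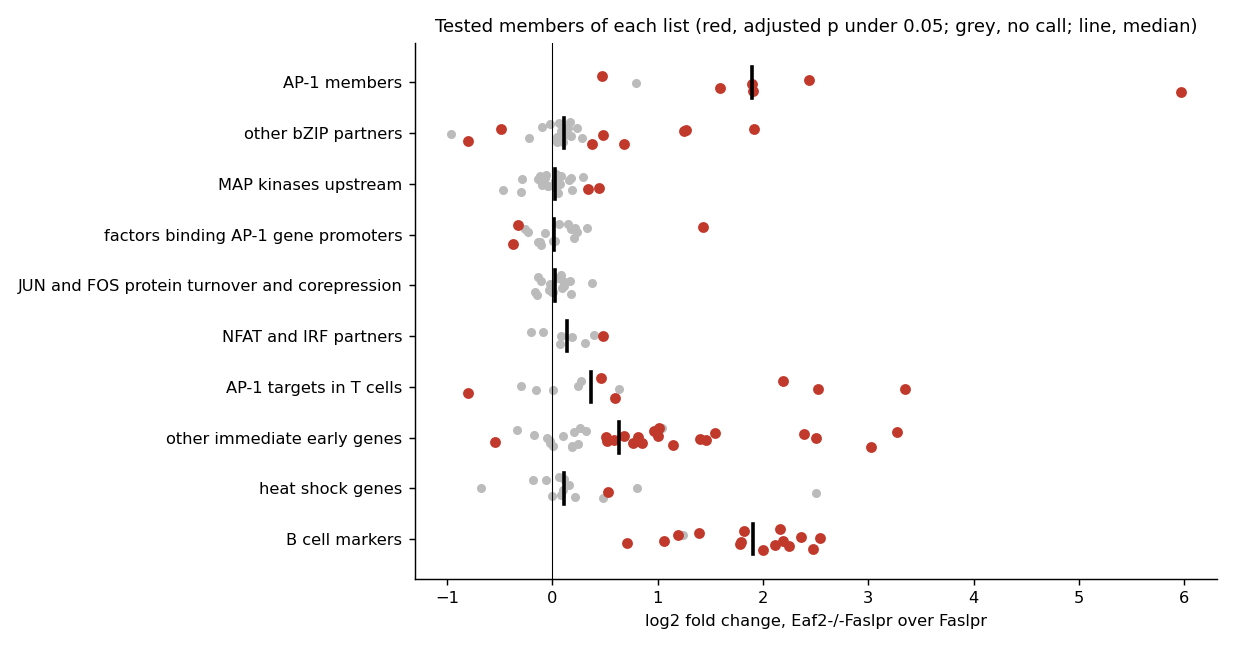
Each point is 1 tested gene of a list, with its log2 fold change of Eaf2-/-Faslpr over Faslpr on the x axis and the lists down the page. Red points passed, grey points did not, and the black bar marks the list's median. AP-1 subunits and B cell markers lie right of 0, with medians of 1.89 and 1.91, whereas the MAP kinases and the turnover genes centre near 0.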

How the data were processed

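RNA came from B220+CD3+ spleen cells, extracted with TRIzol and made into DNBSEQ mRNA libraries, per the labels' protocols. The deposited table of 17384 genes holds the authors' estimated counts (expected counts of the RSEM kind, not scaled to depth) and the authors' FPKM values. The submitters' processing notes name HISAT2 2.2.1, Bowtie2 2.4.5, RSEM 1.3.1 and build GRCm39. The sources used here give no annotation, filter or strand setting. RSEM shares out reads that match several genes, so near-identical and overlapping genes are uncertain. Of the estimated counts 36.8% were whole within 0.001. A further 16 per-sample columns were not used.

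Groups came from the sample titles. Counts were rounded, filtered with filterByExpr (12340 genes left), scaled by TMM and tested with edgeR 4.0.16 (glmQLFit, glmQLFTest, R 4.3.3) over all 8 libraries with no covariate. P-values were adjusted by Benjamini-Hochberg over all tested genes, and values under 0.05 passed. The SE is the absolute log2 fold change over the square root of F. FPKM values served for levels between genes. Ratios of summed reads carry exact binomial 95% intervals, which cover counting error only. The scripts were tested on simulated data.

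Alternatives were DESeq2 1.42.0 size factors in edgeR, no filter on low counts, DESeq2, limma-voom (limma 3.58.1), the replicate number as a block, leaving out each library, and leaving out both replicates numbered 4. Named genes were Eaf2, Fas, the 10 members, up to 3 passing genes per list and direction by smallest p, the most abundant marker of each cell type, and the 3 genes most like each member that passed (at least 5 CPM, prior count 0.5 in log2 CPM). A gene taken by this rule is not reported here. Members, lists and settings were chosen with earlier results of these data known. Promoter sequences are RefSeq's on GRCm38.p6.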

Additional observations from a re-analysis of the deposited data

Results flagged for a closer look

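In groups of 4 libraries, 12 of the 158 groups checked had a highest or lowest library whose gap to the next, divided by the group's range, was above Dixon's 95% critical value. Chance alone flags about 1 in 20 groups. Batf3 was at 0.110 CPM in Faslpr replicate 3, from 2 reads, and at 0 in the other Faslpr libraries. The Fos share of the FOS family was lowest, 48.7%, in Faslpr replicate 2, where the others lay between 61.0% and 62.1%, and in the same library the Fosb share was highest, 50.7%, against 37.3% to 38.0%.

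Eaf2-/-Faslpr replicate 3 was the library set apart for Pax5 (48.3 CPM, the others 26.1 to 27.6 CPM), for Lyz2 (75.1 CPM, the others at most 10.54 CPM), for the summed B cell markers (784 CPM, the others 421 to 441 CPM) and for the summed neutrophil markers (119.56 CPM, the others 13.2 to 20.3 CPM). Lyz2 was also highest in Faslpr replicate 3, at 5.94 CPM, against 2.06 to 2.69 CPM. Arhgap31 was at 50.4 CPM in Eaf2-/-Faslpr replicate 1, against 34.4 to 35.7 CPM in the other Eaf2-/-Faslpr libraries. Nr4a3 was at 26.1 CPM in Eaf2-/-Faslpr replicate 4, against 20.4 to 21.3 CPM. Mid1 was at 12.1 CPM in Faslpr replicate 3, against 9.68 to 9.95 CPM, and Irf8 was at 51.4 CPM in Faslpr replicate 4, against 44.4 to 45.3 CPM.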

How the results depend on the processing

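Direction was kept by all 7 tested members in every alternative that gave a value. The count of changed genes was 1493, and 990 to 1599 over the leave-one-out fits, lowest without Faslpr replicate 2. The count of lower genes was 612, with 372 to 659 over the leave-one-out fits, again lowest without Faslpr replicate 2, and 403 without both replicates numbered 4. With read counts not divided by length, the Jun share was 18.7% in Eaf2-/-Faslpr and 0.789% in Faslpr cells, that of Junb 46.8% in Eaf2-/-Faslpr and 38.1% in Faslpr cells, and that of Jund 34.5% in Eaf2-/-Faslpr and 61.1% in Faslpr cells. On the same scale the Fos share was 52.5% in Eaf2-/-Faslpr and 44.0% in Faslpr cells, and the Fosb share 46.8% in Eaf2-/-Faslpr and 55.2% in Faslpr cells, since these values weight longer transcripts more. The Lck log2 fold change, which did not pass, was −0.03 and changed sign, at 0.01 without Eaf2-/-Faslpr replicate 1, 0.03 without Faslpr replicate 4 and 0.0057 without both replicates numbered 4 (−0.067 to 0.031 over the leave-one-out fits, the cause was not tested). The call for the Fosl2 log2 fold change was also lost by limma-voom (adjusted p = 0.115) and in edgeR without both replicates numbered 4 (adjusted p = 0.0837).

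The replicate numbers did not pair the libraries, since the correlations of same-numbered libraries' deviations lay between −0.06 and 0.17. The fit with the replicate block called 1425 genes, 6 of them AP-1 subunits, and 5 of 8 libraries correlated best with their own number, a hint from the data and not from the design. An adjusted p that DESeq2 left undefined was not counted. Depth limits Fosl1, Batf3 and Atf3, which had 44, 7 and 53 reads over the Eaf2-/-Faslpr libraries and 30, 2 and 4 over the Faslpr libraries.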
